A study of Rattus norvegicus with 13 samples.

Results

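Cytosolic ribosomal protein genes were followed in rat kidney glomeruli that had been isolated in different ways, on Affymetrix Rat 230A arrays. A probe set, the group of short oligonucleotides that measures 1 transcript on such an array, was a member if the platform annotation gave it 1 gene symbol and that symbol was Rpl or Rps followed by a digit, Rplp0, Rplp1, Rplp2 or Rpsa, with S6 kinase and mitochondrial ribosomal genes left out. The rule found 50 of 15923 probe sets, for 44 of the 10411 genes with such a symbol: 33 for 30 genes of the large subunit and 17 for 14 genes of the small subunit. A further 34 probe sets that carry a ribosomal protein symbol together with other symbols were not members, and the probe sets of Rplp1, Rpl32 and Rps18 were of that kind, while no probe set carried the symbol Rplp2. By its letters the rule also took in the paralogues Rpl7l1, Rpl3l, Rps27l and Rps4y2.

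The animals were Lewis-Hsd rats, 18 weeks old and untreated, and their kidneys were taken in pairs. In the group titled LCM 20 (called LCM20 here, 4 arrays) and in the group titled LCM 800 (LCM800, 5 arrays), glomeruli were cut out of frozen 10 µm sections by laser capture microdissection, and the RNA went through 2 rounds of amplification. The protocol text is the same for both and names about 800 cross-sections, so the labels do not say what the number 20 stands for. In the group titled iron (sieved, 4 arrays), the kidney was perfused with iron oxide and the glomeruli were isolated by sieving and magnet. The stated purity was above 99%, and no round of amplification is given for this RNA. Isolation and the stated amplification changed together between the microdissected and the sieved groups, so their parts in any difference cannot be told apart. Anti-Thy1.1 rats are named in 1 protocol, yet each label says untreated, and a description field about embryos fits no other label.

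The cytosolic ribosome of mammals consists of a large subunit, which joins amino acids, and a small subunit, which reads the messenger RNA, and each protein of these subunits is needed in about equal copy number. The messenger RNAs of ribosomal proteins begin with an unbroken run of pyrimidines, the 5′ terminal oligopyrimidine tract, through which growth signals control their translation as a group. Transcripts of these genes are short and abundant in most tissues, and several of them serve as reference genes in expression work. Mammalian genomes hold many processed pseudogenes of ribosomal protein genes, which short probes may not tell from the genes themselves.

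Podocyte markers were measured in each group, but their probe sets differed in direction. On one probe set of synaptopodin (Synpo, a podocyte protein) the mean signal was 18798 in LCM20, 20285 in LCM800 and 6417 in sieved glomeruli, and on its other one 248 in LCM20, 269.8 in LCM800 and 400.4 in sieved glomeruli. One set of the podocyte transcription factor Wt1 was dim, with means of 125 in LCM20, 120.2 in LCM800 and 448 in sieved glomeruli. The brighter set of Wt1 had means of 1633 in LCM20, 1908 in LCM800 and 1528 in sieved glomeruli. Of the 11 podocyte probe sets tested, 3 were higher (27.3%) and 4 lower (36.4%) in LCM20. In LCM800, 3 of them were higher (27.3%) and 5 lower (45.5%). Of 7 glomerular endothelial probe sets, 4 were higher (57.1%) in either group. Over all probe sets tested, 26.2% were higher and 19.2% lower in LCM20, and 31.8% higher and 20.1% lower in LCM800. The podocyte share of rises was thus near that over all probe sets in LCM20 and below it in LCM800. The mean level of the proximal tubule list on the log2 scale was 9.31 to 10.41 in LCM20, 9.70 to 10.42 in LCM800 and 11.91 to 13.17 in sieved glomeruli. The lowest sieved value belonged to replicate 3. Of the list's 14 probe sets, 13 fell in either comparison with the sieved group (median log2 change −3.18 in LCM20 and −2.82 in LCM800), while 1, in LCM800, rose. The log2 difference between the 3′ and the 5′ control probe sets of β-actin, which is larger where signal comes mostly from the ends of transcripts, was 1.80 ± 0.45 in LCM20 (SD, n = 4; exact permutation p = 0.0286, adjusted over 4 tests 0.0381) and 2.77 ± 1.03 in LCM800 (n = 5; exact permutation p = 0.0238, adjusted 0.0381), against 0.55 ± 0.02 in sieved glomeruli (n = 4). That of Gapdh was 1.14 ± 1.38 in LCM20 (exact permutation p = 0.543, adjusted 0.543) and 1.22 ± 0.49 in LCM800 (exact permutation p = 0.0159, adjusted 0.0381), against 0.52 ± 0.15 in sieved glomeruli. The part of tubule RNA and of this 3′ excess in the ribosomal protein results was not tested. In such bulk samples, fewer cells of a type and less RNA per cell cannot be told apart.

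Ribosomal protein transcripts did not move as a group between microdissected and sieved glomeruli: some fell severalfold, some rose severalfold and the rest passed no test. Of the 50 probe sets, 46 (30 large and 16 small subunit, from 41 genes) passed the filter on low signals and were tested. In LCM20 against sieved glomeruli, 10 of the 46 (21.7%) were higher, against 26.2% of all probe sets tested, and 13 (28.3%) were lower, against 19.2% of all, with limma at an adjusted p under 0.05. In LCM800 against sieved glomeruli, 6 of the 46 were higher, against 31.8% of all, and 18 (39.1%) were lower, against 20.1% of all. The median log2 change was 0.06 in LCM20, where it was 0.17 over all probe sets tested, and −0.20 in LCM800, where it was 0.22 over all. Without sieved replicate 1, sieved replicate 4 or LCM20 replicate 2 the count of rises in LCM20 was 6, or 13%, against 21.1% to 23.2% of all probe sets. Both comparisons share the 4 sieved arrays.

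By subunit, the counts of calls ran as follows. In LCM20, 7 large subunit probe sets were higher (23.3%) and 7 lower (23.3%) of 30. Of 16 small subunit probe sets, 3 were higher (18.8%) and 6 lower (37.5%) there. Over all probe sets tested, 26.2% were higher and 19.2% lower in LCM20. In LCM800, 4 large subunit probe sets were higher (13.3%) and 12 lower (40%). Small subunit calls in LCM800 were 2 higher (12.5%) and 6 lower (37.5%). The shares over all probe sets in LCM800 were 31.8% higher and 20.1% lower. The median log2 change in LCM800 was −0.15 for the large and −0.29 for the small subunit. Changes were spread more widely among the small subunit probe sets, with quartiles of −2.10 and 0.33 in LCM800, against −1.17 and 0.08 in the large subunit. Part of that spread lay between probe sets of the same gene. Those of Rpsa were at −2.20, 0.69 and 1.58 in LCM800, and those of Rps24 at −2.73 and −0.87. Each LCM800 array had a median member deviation from the sieved mean below 0, at −0.31, −0.12, −0.01, −0.48 and −0.60 on the log2 scale, while the LCM20 arrays were at 0.05, 0.16, −0.07 and 0.22 and the sieved arrays at −0.10, −0.06, 0.21 and −0.09.

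**Figure D1:**
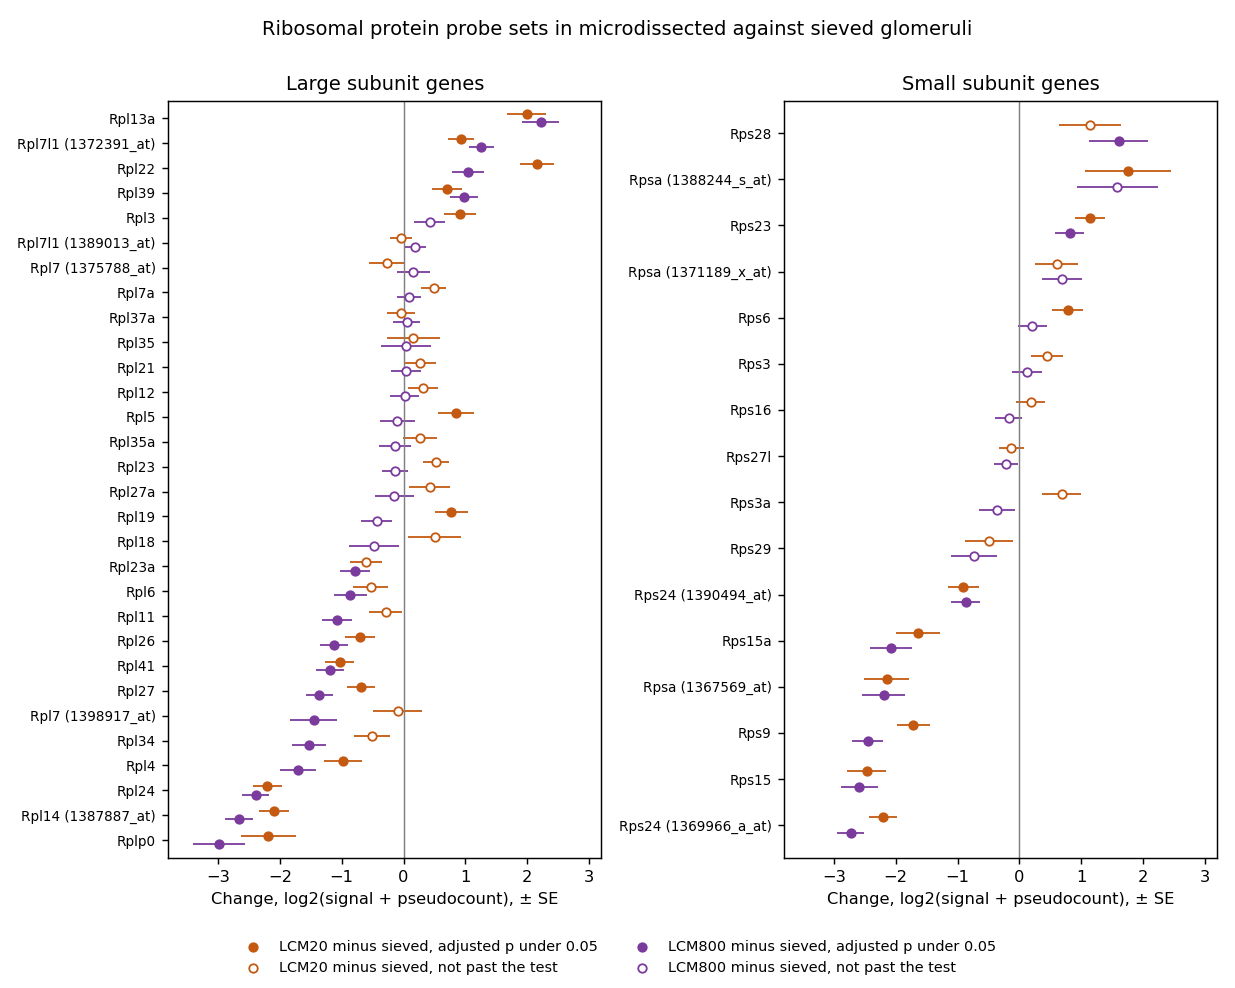
Log2 change of the 46 tested ribosomal protein probe sets in LCM20 (orange) and LCM800 (purple) against sieved glomeruli, on the log2(signal + pseudocount) scale, with bars of 1 SE; filled points passed limma's test at an adjusted p under 0.05. Rplp0 lies lowest, at −2.98 in LCM800, and Rpl13a highest in LCM800, at 2.21, with the other members spread in between.

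Among the large subunit proteins, the deepest falls were those of Rplp0, Rpl14 and Rpl24. Rplp0 is the base of the ribosomal stalk, the arm of the large subunit that recruits elongation factors, and it is a common reference gene. Its signal was 426, 616, 631 and 2304 on the LCM20 arrays, 479.7, 896, 611, 273 and 182 on the LCM800 arrays and 4005, 4011, 3855 and 3553 on the sieved arrays. Every microdissected array lay below every sieved array, and LCM20 replicate 4 stood well above the other LCM20 arrays. The log2 change by limma was −2.18 ± 0.44 in LCM20 (SE, adjusted p = 0.001) and −2.98 ± 0.42 in LCM800 (adjusted p = 3.84e-05). The mean signal was 3.88-fold lower in LCM20 and 7.89-fold lower in LCM800. Folds here and below are ratios of mean signals without the pseudocount, so they differ from the limma changes printed beside them. Rpl14, a protein of the large subunit's surface, gave 448, 733, 471 and 920.0 in LCM20, 367, 569, 391, 311 and 384 in LCM800 and 2827, 2829, 3315 and 2486 in sieved glomeruli (probe set 1387887_at). Neither microdissected group overlapped with the sieved group. Rpl14 fell by 4.45-fold in LCM20 (log2 change −2.09 ± 0.24, adjusted p = 8.93e-06 by limma) and by 7.08-fold in LCM800 (−2.66 ± 0.23, adjusted p = 4.75e-07). Rpl24, which forms a bridge between the subunits, gave 495, 626, 442 and 565 in LCM20, 441, 718, 516, 319 and 367 in LCM800 and 2677, 2305, 3258 and 2506 in sieved glomeruli. Here too both microdissected ranges stood apart from the sieved range, with log2 changes of −2.20 ± 0.23 in LCM20 (adjusted p = 4.29e-06 by limma) and −2.39 ± 0.22 in LCM800 (adjusted p = 9.18e-07).

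In the small subunit Rps24, Rps15, Rps9 and Rps15a fell most, beside 1 of the probe sets of Rpsa that is described further on. Rps24, one of the genes mutated in the human red cell disorder Diamond-Blackfan anaemia, gave 614, 662, 689.6 and 732 in LCM20, 615, 474, 344, 474 and 383 in LCM800 and 2885, 2819, 5059 and 3035 in sieved glomeruli (probe set 1369966_a_at). The fall was 5.11-fold in LCM20 (log2 change −2.21 ± 0.23, adjusted p = 3.70e-06 by limma) and 7.53-fold in LCM800 (−2.73 ± 0.22, adjusted p = 2.66e-07). The LCM20 arrays were close to each other, and sieved replicate 3 was the highest of all. Rps15, which lies in the head of the small subunit, gave 519, 499, 607 and 822 in LCM20, 1029, 844, 490.2, 331 and 329 in LCM800 and 3378, 3058, 4779 and 3495 in sieved glomeruli. Its log2 change was −2.47 ± 0.32 in LCM20 (adjusted p = 2.24e-05 by limma), the lowest of all members there, and −2.59 ± 0.30 in LCM800 (adjusted p = 6.79e-06). Rps9, a protein near the entry site of the messenger RNA, gave 727, 1116, 782 and 1598 in LCM20, 419, 490.4, 731, 812 and 521 in LCM800 and 3224, 3538, 4014 and 3132 in sieved glomeruli. It fell by 3.29-fold in LCM20 (adjusted p = 1.06e-04 by limma) and by 5.84-fold in LCM800 (adjusted p = 2.30e-06). Rps15a, a core protein of the small subunit, fell in both groups as well, with log2 changes of −1.65 ± 0.36 in LCM20 (adjusted p = 0.00156 by limma) and −2.07 ± 0.34 in LCM800 (adjusted p = 1.30e-04).

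**Figure D2:**
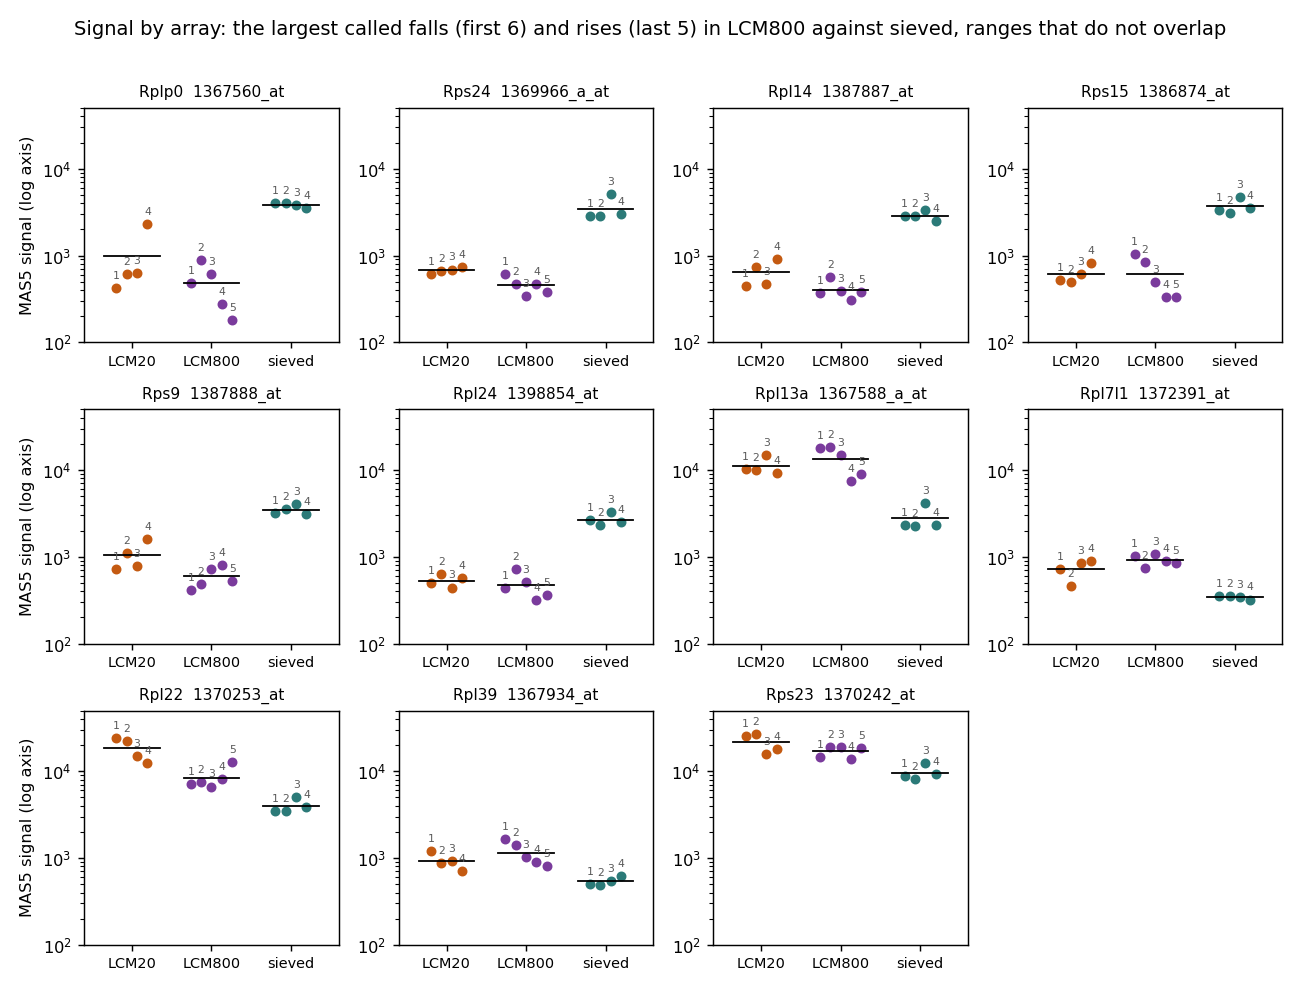
MAS5 signal on each array (log axis, arbitrary units) for the 6 deepest falls and the 5 called rises whose LCM800 and sieved ranges do not overlap; points are arrays with their replicate number and lines are group means. For Rplp0 the LCM800 arrays reach 896 at most and the sieved arrays start at 3553, and for Rpl13a the LCM800 arrays start at 7409 and the sieved arrays reach 4176.

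The starts of these genes were read to see whether the falling and the rising transcripts differ at the pyrimidine tract. The windows below, from RefSeq on build GRCr8, run from 20 bases before to 20 bases after the annotated start of genes that fell in both microdissected groups, with the longest run of C and T in capitals. They are Rplp0 at chr12:46718371-46718410 (minus strand), Rps24 at chr16:96497-96536 (plus strand), Rpl14 at chr8:129163600-129163639 (plus strand), Rps15 at chr7:10068096-10068135 (minus strand), Rps9 at chr1:74430418-74430457 (minus strand) and Rpl24 at chr11:58128386-58128425 (minus strand).
Rplp0: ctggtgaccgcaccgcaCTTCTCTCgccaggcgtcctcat
Rps24: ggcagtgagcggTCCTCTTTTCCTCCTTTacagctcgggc
Rpl14: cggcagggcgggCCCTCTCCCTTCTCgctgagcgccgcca
Rps15: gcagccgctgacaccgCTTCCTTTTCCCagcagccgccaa
Rps9: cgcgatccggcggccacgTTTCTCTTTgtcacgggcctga
Rpl24: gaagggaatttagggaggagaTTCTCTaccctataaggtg

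The run of Rplp0 has 8 pyrimidines, that of Rps24 has 17, those of Rpl14 and Rps15 have 14 and 12, and that of Rps9 has 9. Each of these 5 spans the annotated start. In Rpl24 the longest run has 6 letters and begins at position 2, counted from 1 at the annotated start.

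Other falls that passed the test in both comparisons were smaller. They were those of Rpl4, which lines the exit tunnel of the nascent chain (log2 change −0.98 in LCM20 and −1.70 in LCM800), Rpl27 (−0.69 in LCM20, −1.36 in LCM800), Rpl41 (−1.03 in LCM20, −1.19 in LCM800), Rpl26 (−0.70 in LCM20, −1.12 in LCM800) and the dim second probe set of Rps24, 1390494_at (−0.91 in LCM20, −0.87 in LCM800), whose ranges overlapped with those of the sieved arrays. Without LCM20 replicate 3 the LCM20 calls of Rpl4 (adjusted p = 0.0564 by limma), Rpl26 (0.0695) and Rpl27 (0.0632) were lost. That of Rpl27 was also lost without LCM20 replicate 4 (0.0529), and that of Rpl26 without sieved replicate 1, 2 or 4 (0.0505 to 0.0598).

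A further 5 large subunit probe sets passed the test for a fall in LCM800 but not in LCM20. Rpl34 gave 1900.3, 4171, 2471 and 3323 in LCM20, 759.8, 1344, 1689, 1648 and 1661 in LCM800 and 3555, 3775, 5053 and 4022 in sieved glomeruli. All LCM800 arrays lay below all others, with a log2 change of −0.51 ± 0.29 in LCM20 (adjusted p = 0.163 by limma) and −1.53 ± 0.27 in LCM800 (adjusted p = 3.08e-04). Rpl7 (1398917_at) had log2 changes of −0.10 in LCM20 and −1.45 in LCM800, Rpl11 of −0.29 in LCM20 and −1.08 in LCM800, Rpl6 of −0.53 in LCM20 and −0.86 in LCM800, and Rpl23a of −0.61 in LCM20 and −0.78 in LCM800. Rpl11 binds the small RNA of the large subunit together with Rpl5, and in human cells both hold back the p53 regulator MDM2. In LCM20, Rpl6 passed without LCM20 replicate 4 (adjusted p = 0.0272 by limma) and Rpl23a without LCM20 replicate 1 (0.0489) or LCM800 replicate 1 (0.0308). The difference between LCM20 and LCM800 itself passed the adjusted test for none of the 5.

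Rises were fewer, and the 5 largest with ranges clear of the sieved arrays in LCM800 were those of Rpl13a, Rpl7l1, Rpl22, Rpl39 and Rps23. Rpl13a, another common reference gene and, in human cells, part of a complex that silences inflammatory messages, gave 10253, 9929.8, 14791 and 9180.2 in LCM20, 17982, 18223, 14999, 7409 and 9024 in LCM800 and 2334, 2277, 4176 and 2330.4 in sieved glomeruli. It was 3.97-fold higher in LCM20 (log2 change 1.99 ± 0.32, adjusted p = 1.57e-04 by limma) and 4.87-fold higher in LCM800 (2.21 ± 0.30, adjusted p = 2.94e-05). No microdissected array came down to the sieved range, although sieved replicate 3 stood far above the other sieved arrays. Rpl22, a peripheral RNA-binding protein of the large subunit, gave 24024, 22497, 14843 and 12407 in LCM20, 7199.9, 7438, 6666, 8035 and 12676 in LCM800 and 3504, 3486, 5099.6 and 3829 in sieved glomeruli. Its rise was 4.63-fold in LCM20 (log2 change 2.16 ± 0.28, adjusted p = 2.21e-05 by limma), the highest of all members there, and 2.11-fold in LCM800 (1.04 ± 0.26, adjusted p = 0.00369).

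Rps23, which sits at the decoding centre of the small subunit, gave 25729, 27025, 15906 and 17922 in LCM20, 14731, 18850.3, 18918, 13923 and 18366 in LCM800 and 8849, 8204, 12427 and 9177 in sieved glomeruli. The rise was 2.24-fold in LCM20 (log2 change 1.14 ± 0.24, adjusted p = 0.00149 by limma) and 1.75-fold in LCM800 (0.81 ± 0.23, adjusted p = 0.00827). Its LCM800 call was lost with no filter on low signals (adjusted p = 0.0633 by limma). Rpl39, a very small protein at the exit of the tunnel, gave 1202, 881, 927 and 714 in LCM20, 1637, 1409.7, 1028, 901 and 809.7 in LCM800 and 498, 492, 537 and 627 in sieved glomeruli. The log2 change was 0.71 ± 0.24 in LCM20 (adjusted p = 0.0242 by limma), a call lost without sieved replicate 1 or 2 or LCM20 replicate 1 (adjusted p = 0.0619 to 0.0775), and 0.98 ± 0.23 in LCM800 (adjusted p = 0.00214). Rpl7l1, a paralogue of Rpl7, rose on 1 of its probe sets, 1372391_at, with 716, 466, 842 and 903 in LCM20, 1019, 743, 1076, 898 and 847 in LCM800 and 353, 349, 348 and 322 in sieved glomeruli. The log2 change there was 0.93 ± 0.21 in LCM20 (adjusted p = 0.0022 by limma) and 1.26 ± 0.20 in LCM800 (adjusted p = 1.04e-04).

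The same windows of the rising genes, again from RefSeq on build GRCr8 with the longest pyrimidine run in capitals, were Rpl13a at chr1:104748894-104748933 (minus strand), Rpl22 at chr5:168117941-168117980 (plus strand), Rps23 at chr2:23814497-23814536 (plus strand), Rpl39 at chrX:121195877-121195916 (minus strand) and Rpl7l1 at chr9:21695698-21695737 (plus strand).
Rpl13a: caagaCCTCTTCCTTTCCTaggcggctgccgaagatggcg
Rpl22: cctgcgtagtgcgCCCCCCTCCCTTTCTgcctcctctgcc
Rps23: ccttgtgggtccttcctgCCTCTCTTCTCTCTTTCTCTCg
Rpl39: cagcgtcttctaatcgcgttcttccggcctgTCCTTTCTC
Rpl7l1: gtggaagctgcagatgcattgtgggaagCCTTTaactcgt

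Rpl13a has a run of 14, Rpl22 of 15 and Rps23 of 21 pyrimidines, those of Rpl22 and Rps23 spanning the annotated start and that of Rpl13a ending before it. The run of Rpl39 has 9 letters, begins at position 12 and reaches the end of the window. In Rpl7l1 the longest run has 5 letters and begins at position 9. Long runs thus occur at the starts of genes that rose as well as of genes that fell, and a short one on either side. A run of at least 8 pyrimidines on the gene's strand lay in the window of 26 of the 39 member genes that the RefSeq promoter table holds (66.7%), against 5199 of 33469 genes in that table (15.5%). The run could lie anywhere in the window, before or after the annotated start, so the count is not one of terminal tracts. By the call in LCM800 against sieved glomeruli, such a run was present in 5 of the 6 genes that rose, 9 of the 14 that fell and 10 of the 17 that passed no test. The letters CCGGAA, the core of ETS family factor motifs, were found on either strand of the 300 bases around the start in 14 of the 39 member genes (35.9%), against 15.0% of all genes: in 2 of the 6 that rose, 5 of the 14 that fell and 7 of the 17 others.

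Beside 1 probe set of Rpsa, described further on, another 4 genes passed the test for a rise in LCM20 and not in LCM800, and none of their LCM20 minus LCM800 differences passed the adjusted test. Rpl19, a reference gene whose protein bridges the subunits, gave 9576, 11861, 7609 and 13186 in LCM20, 3761, 5233, 6703, 4136 and 3133 in LCM800 and 5618, 6240.1, 6805 and 5479.8 in sieved glomeruli. Its LCM20 arrays lay above all others, with a log2 change of 0.77 ± 0.26 in LCM20 (adjusted p = 0.0243 by limma) and −0.43 ± 0.25 in LCM800 (adjusted p = 0.154). The LCM20 call was lost without sieved replicate 1 or 4 or LCM20 replicate 2 or 4 (adjusted p = 0.0617 to 0.0683 by limma). Rpl5 gave 9226, 10509, 7656 and 10724 in LCM20, 2942, 3799, 4385, 7431 and 7566 in LCM800 and 4937, 4937, 6428 and 4765 in sieved glomeruli. The log2 change was 0.85 ± 0.29 in LCM20 (adjusted p = 0.0273 by limma), a call lost without sieved replicate 1, 2 or 4 or LCM20 replicate 2 or 4 (0.0613 to 0.0674), and −0.10 ± 0.28 in LCM800 (adjusted p = 0.783). Rps6, the target of S6 kinases in growth signalling, had log2 changes of 0.78 in LCM20 (adjusted p = 0.0188 by limma) and 0.21 in LCM800 (adjusted p = 0.477). Its LCM20 call was lost with no filter or without sieved replicate 4 or LCM20 replicate 2 (0.0544 to 0.0684). Rpl3, near the peptidyl transferase centre, had log2 changes of 0.92 in LCM20 (adjusted p = 0.0091 by limma) and 0.42 in LCM800 (adjusted p = 0.162).

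Reference genes of this family thus stood on opposite sides: Rplp0 fell and Rpl13a rose in both microdissected groups. Rpl19 had log2 changes of 0.77 in LCM20, a call lost without some single replicates, and −0.43 in LCM800, which did not pass the test. Members with small changes in both comparisons included Rpl37a (log2 change −0.04 ± 0.22 in LCM20 and 0.05 ± 0.21 in LCM800), Rpl21 (0.27 ± 0.26 in LCM20, 0.03 ± 0.24 in LCM800), Rpl12 (0.32 ± 0.25 in LCM20, 0.02 ± 0.23 in LCM800) and Rps16 (0.18 ± 0.23 in LCM20, −0.18 ± 0.22 in LCM800), all SE and none past the test. The signal of Rpl37a was 6063, 5546, 4159.8 and 4803 in LCM20, 5306, 6806, 5692, 4291 and 5338 in LCM800 and 4361, 4687, 6156 and 5980.2 in sieved glomeruli. Its groups overlapped throughout.

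For some genes with several probe sets, the sets differed in direction. Rpsa, a small subunit protein also known as the laminin receptor precursor, has 3 probe sets. The plain set 1367569_at gave 1330.0, 1107, 689 and 2356 in LCM20, 1298, 1871, 1939, 803 and 655 in LCM800 and 5493, 5619, 6544 and 5463 in sieved glomeruli, and fell in both groups (log2 change −2.15 ± 0.36 in LCM20, adjusted p = 2.32e-04, and −2.20 ± 0.35 in LCM800, adjusted p = 9.53e-05, by limma). The set 1388244_s_at, whose suffix marks probes that match more than 1 transcript, gave 4707, 6935, 8329 and 6304 in LCM20, 15473, 17130.5, 11179.5, 1682 and 1148 in LCM800 and 1415, 1563, 2849 and 1893 in sieved glomeruli. The log2 change had the other sign, at 1.76 ± 0.69 in LCM20 (adjusted p = 0.0492 by limma) and 1.58 ± 0.66 in LCM800 (adjusted p = 0.0542). Both values lay near the threshold. The LCM20 call was lost in 11 of the alternatives (adjusted p = 0.0507 to 0.109 by limma), among them leaving out sieved replicate 1, 2 or 4, LCM800 replicate 3 or any LCM20 replicate. In LCM800 the set passed without LCM800 replicate 4 (2.01, adjusted p = 0.0135) or 5 (2.14, 0.00412), and without LCM800 replicates 1, 2 and 3 its change turned to −0.40 (adjusted p = 0.307). The set 1371189_x_at, whose suffix marks probes that may bind unrelated transcripts, had log2 changes of 0.60 ± 0.34 in LCM20 (adjusted p = 0.164 by limma) and 0.69 ± 0.33 in LCM800 (adjusted p = 0.0867). In LCM800 it passed without LCM800 replicate 4 (0.91, adjusted p = 0.0204) or 5 (0.89, 0.0259), and without LCM800 replicates 1, 2 and 3 its change turned to −0.15 (adjusted p = 0.632). The direction for Rpsa is therefore uncertain on these arrays.

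**Figure D3:**
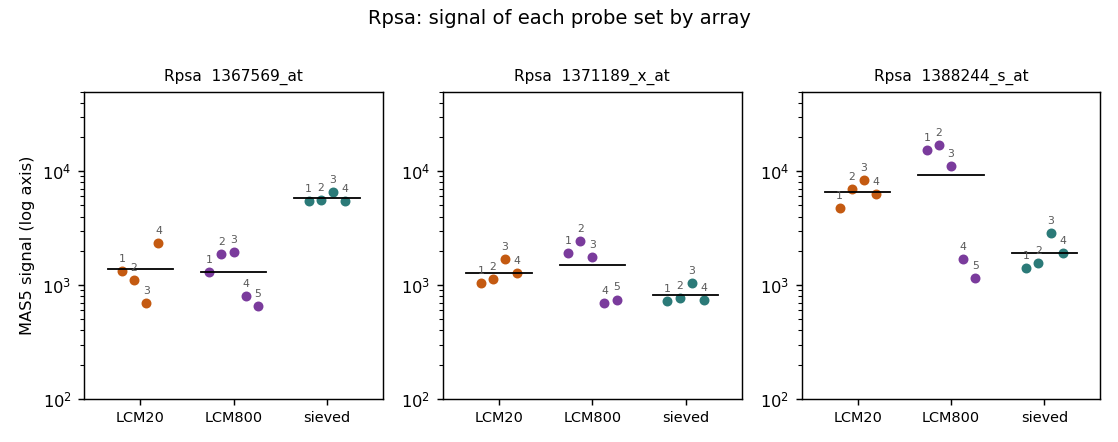
MAS5 signal (log axis, arbitrary units) of the 3 probe sets of Rpsa on each array, with replicate numbers and group means. On 1367569_at every microdissected array lies below the sieved arrays, which start at 5463, whereas on 1388244_s_at LCM800 replicates 1 to 3 start at 11179.5 and replicates 4 and 5 lie within the sieved range or below it.

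The sets of Rpl7l1 and of Rpl7 differed as well. Rpl7l1 rose on 1372391_at, while 1389013_at had log2 changes of −0.04 in LCM20 and 0.18 in LCM800 with overlapping ranges. Rpl7 fell in LCM800 on 1398917_at, while the dim set 1375788_at, with signals of 104 to 349.8 in LCM20, 176 to 396 in LCM800 and 161 to 264 in sieved glomeruli, had log2 changes of −0.27 in LCM20 and 0.16 in LCM800 and passed no test. Both sets of Rps24 fell. The second set of Rpl14, 1375375_at, was among the 4 below the filter on low signals, with Rpl30, Rpl3l and Rps4y2. The signals of that Rpl14 set ran from 26.2 to 66 in LCM20, 37.5 to 77.7 in LCM800 and 18.7 to 57.6 in sieved glomeruli. Over all arrays Rpl30 reached at most 384, Rpl3l, a muscle paralogue of Rpl3, at most 55.9 and Rps4y2 at most 170.5.

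Between the microdissected groups, ribosomal protein signals leaned to the LCM20 side, but no single member passed the adjusted test. None of the 46 was called higher or lower with limma, where 0.072% of all probe sets tested (8 of 11106) were called higher and 0.081% (9) lower. At an unadjusted p under 0.05, 15 members (32.6%) were higher in LCM20 and 0 lower, against 7.75% and 9.82% of all probe sets. The log2 change was positive for 37 of the 46 (80.4%), against 43.6% of all probe sets tested, and the median was 0.34, against −0.06 over all. It was 0.41 for the large and 0.29 for the small subunit. The smallest adjusted p was that of Rpl19 (log2 change 1.21 ± 0.25, adjusted p = 0.0699), followed by Rpl22 (1.11 ± 0.26, adjusted p = 0.0748). Rpl7 (1398917_at) had the largest difference, 1.35 ± 0.38 (adjusted p = 0.111). Rpl19 and Rpl22 followed in size, and then Rps3a at 1.05 ± 0.30 and Rpl34 at 1.02 ± 0.27. Rps28 had the lowest, −0.46 ± 0.48 (adjusted p = 0.642).

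**Figure D4:**
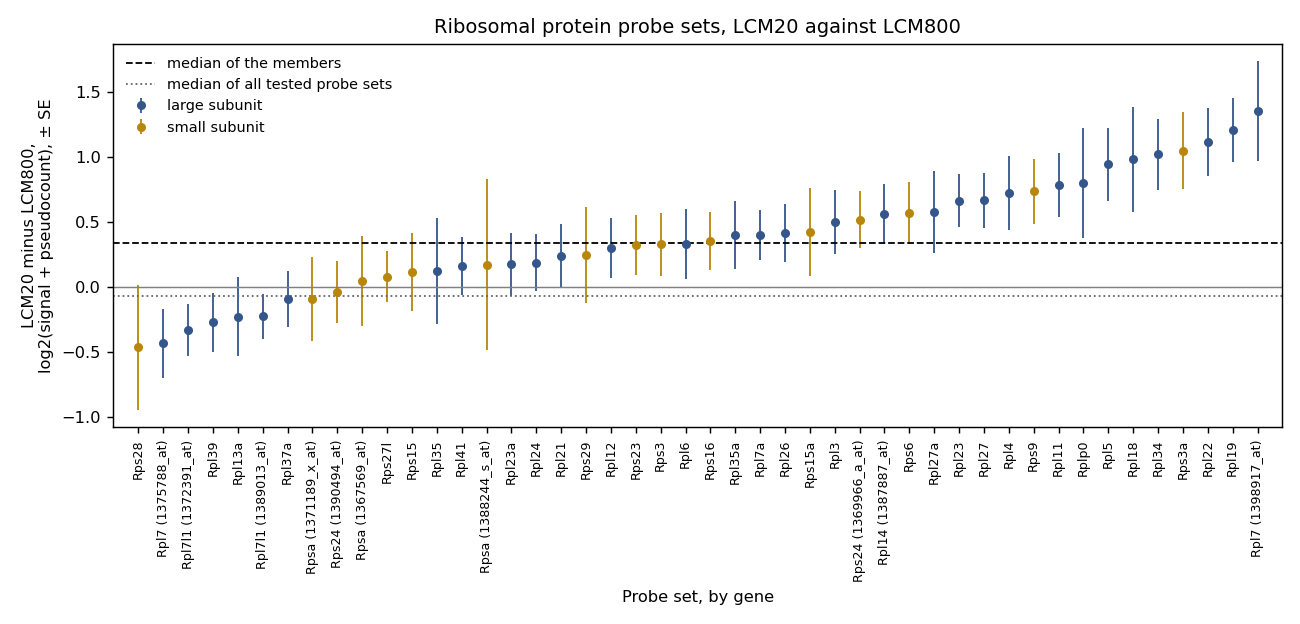
Log2 difference between LCM20 and LCM800 for the 46 tested ribosomal protein probe sets, in order of size, with bars of 1 SE; blue points are large and gold points small subunit members. The dashed line is their median, 0.34, and the dotted line the median of all probe sets tested, −0.06; none of the points passed the adjusted test.

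These differences rest on an LCM800 group whose arrays did not behave alike. No label separates LCM800 replicates 1 to 3 from replicates 4 and 5. This split follows the array values, so the p-values and calls under it describe these arrays and are no independent test. Rps28, a small protein at the exit site of the messenger RNA, gave 5704, 6575, 11609 and 13295 in LCM20, 23028, 25134, 18539, 5997 and 3891 in LCM800 and 3446, 3681, 4547 and 4076 in sieved glomeruli. LCM800 replicates 1 to 3 were far above the sieved arrays and replicates 4 and 5 were near them, with a log2 change of 1.14 ± 0.51 in LCM20 (adjusted p = 0.0757 by limma) and 1.60 ± 0.48 in LCM800 (adjusted p = 0.0109). Every LCM20 array lay above every sieved array, while the LCM800 and sieved ranges overlapped. Without LCM800 replicates 1, 2 and 3 the LCM800 change was 0.30 (adjusted p = 0.489 by limma). The LCM20 change passed in 7 of 26 alternatives. Among them were leaving out LCM800 replicate 5 (adjusted p = 0.0281 by limma) and a fit of only the 2 groups compared (0.00565). Rpl35, which lies at the exit of the tunnel, gave 5917, 5453, 4031 and 5565 in LCM20, 7779, 9220.0, 7193, 1784 and 2596 in LCM800 and 3966, 3995, 6027 and 4863 in sieved glomeruli. Rps29, a zinc-binding protein of the small subunit, gave 6683, 6694, 10054 and 10177 in LCM20, 9993, 13749.9, 9441, 3602 and 3399 in LCM800 and 10813, 12045, 10425 and 13152 in sieved glomeruli. In both, replicates 1 to 3 were again the high ones of the LCM800 group, and without them the LCM800 change was −1.09 for Rpl35 (adjusted p = 0.00591 by limma), against 0.03 with them, and −1.71 for Rps29 (adjusted p = 2.60e-04), against −0.73 with them. Rps29 also passed in LCM800 without replicate 2 alone (−0.98, adjusted p = 0.03). The reverse held for Rpl7 (1398917_at), which gave 5128, 6305, 3084 and 6085 in LCM20, 746, 1335, 1876, 3708 and 3502 in LCM800 and 5373, 5302, 5685 and 4937 in sieved glomeruli. Its LCM800 change was −0.55 (adjusted p = 0.125 by limma) without replicates 1, 2 and 3. Rpl5, given above, also had its low LCM800 values on replicates 1 to 3.

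The β-actin 3′ excess was 2.80, 3.54 and 4.01 on LCM800 replicates 1 to 3 and 1.78 and 1.71 on replicates 4 and 5. That of Gapdh did not split this way, at 1.24, 1.11 and 1.08 on replicates 1 to 3 and 2.02 and 0.68 on replicates 4 and 5. The part of either control's 3′ excess in the ribosomal protein values was not tested. With replicates 4 and 5 left out, 10 members (21.7%) were called higher and 3 (6.52%) lower in LCM20 than in LCM800, against 11.4% and 11.9% of all probe sets under that setting, and the median difference of the members was 0.23. With replicates 1, 2 and 3 left out, 4 (8.7%) were called higher and 0 lower, against 0.207% and 0% of all, and the median difference was 0.58. Rpl19 passed either way (adjusted p = 0.0102 without replicates 4 and 5 and 0.0434 without replicates 1, 2 and 3, by limma). Without LCM800 replicate 4 alone 6 members were called higher (Rpl5, Rpl7, Rpl19, Rpl22, Rpl34 and Rps3a), or 13%, against 2.21% of all probe sets. Without replicate 5 alone 3 were (Rpl7, Rpl19 and Rpl22), or 6.52%, against 0.819% of all. Rpl6 (−0.53, adjusted p = 0.181), Rps23 (0.74, 0.0505) and the dim set 1390494_at of Rps24 (−0.71, 0.0743) no longer passed in LCM800 against sieved glomeruli by limma without replicates 1, 2 and 3.

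Member signals varied about as much among microdissected arrays as those of other genes. The median SD of the 46 on the log2 scale was 0.341 in LCM20, 0.383 in LCM800 and 0.195 in sieved glomeruli, against 0.364, 0.387 and 0.236 over all probe sets tested. Rplp0 varied most in LCM20, with an SD of 0.999, and Rpsa (1388244_s_at) in LCM800, with 1.84. Rpl7a, a large subunit protein, varied least in LCM20, with an SD of 0.048 and signals of 10914, 11591, 10744 and 11197, and Rps16 least in LCM800, with 0.100 and signals of 5675, 6731, 5935, 6241 and 6550.0.

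Other genes of translation were read beside the ribosomal proteins. Their shares are to be set against those over all probe sets tested, of which 26.2% were higher and 19.2% lower in LCM20 (median log2 change 0.17) and 31.8% higher and 20.1% lower in LCM800 (median 0.22). Of the elongation factors, 2 of 11 probe sets tested were higher (18.2%) and 3 lower (27.3%) in LCM20, and 1 was higher (9.09%) and 5 lower (45.5%) in LCM800, with median log2 changes of −0.11 in LCM20 and −0.42 in LCM800. Eef2, which moves the ribosome along the message, had a log2 change of −2.87 ± 0.58 in LCM20 (SE, adjusted p = 9.06e-04 by limma) and −3.94 ± 0.55 in LCM800 (adjusted p = 3.30e-05). Eef1a1, which brings transfer RNA to the ribosome, had one of −2.67 ± 0.42 in LCM20 (adjusted p = 1.25e-04 by limma) and −2.90 ± 0.40 in LCM800 (adjusted p = 2.89e-05). Of 50 initiation factor probe sets, 6 were higher (12%) and 11 lower (22%) in LCM20 and 9 higher (18%) and 14 lower (28%) in LCM800 (medians −0.01 in LCM20 and −0.26 in LCM800), with the helicase Eif4a1 at −2.83 in LCM20 and −3.51 in LCM800 and Eif3a, a scaffold of the factor that binds the small subunit, at −1.74 in LCM20 and −2.57 in LCM800. Of 19 probe sets of other messages known in mammals to begin with a pyrimidine tract, a list that also holds Eef2 and Eef1a1, 2 were higher (10.5%) and 4 lower (21.1%) in LCM20 and 4 higher (21.1%) and 6 lower (31.6%) in LCM800 (medians 0.23 in LCM20 and 0.08 in LCM800).

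Mitochondrial ribosomal proteins, which build the separate ribosome of that organelle, had shares of rises of 34.7% in LCM20 and 32% in LCM800, the second of them near the 31.8% of all probe sets. Of 75 probe sets tested, 26 were higher and 8 lower (10.7%) in LCM20 and 24 higher and 10 lower (13.3%) in LCM800 (medians 0.18 in LCM20 and 0.13 in LCM800), with Mrpl51 at 1.86 in LCM20 and 1.70 in LCM800. Ribosome assembly factors, which act in the nucleolus and on the way to the cytoplasm, had 8 higher (29.6%) and 3 lower (11.1%) of 27 in LCM20 and 11 higher (40.7%) and 1 lower (3.7%) in LCM800 (medians 0.24 in LCM20 and 0.52 in LCM800). The box C/D protein Nop58 rose by 1.79 ± 0.23 in LCM20 (SE, adjusted p = 2.23e-05 by limma) and 1.99 ± 0.22 in LCM800 (adjusted p = 4.09e-06), and the box H/ACA protein Gar1 by 1.63 ± 0.26 in LCM20 (adjusted p = 1.29e-04) and 1.90 ± 0.24 in LCM800 (adjusted p = 1.66e-05). Between LCM20 and LCM800 the 1 call in these lists was that of Ubtf, a factor for ribosomal RNA transcription, at −1.18 ± 0.21 (adjusted p = 0.0362 by limma).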

How the data were processed

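The values are linear intensity signals that the authors deposited, 1 column for each of 13 arrays, and per the submitters' processing notes MAS5 made them; its version is not given in the sources used here. The mean of each array after leaving out 2% at each end was 500.1, so the deposited signals had been scaled and no further scaling was applied. Signals were taken as log2(signal + 65.3), the pseudocount being the 20th percentile of all signals, which shrinks the changes of dim probe sets. Folds are ratios of the groups' mean signals, taken without the pseudocount, and the p-values beside them belong to the limma log2 changes. After removal of 57 controls and of the dimmest 30% by mean log2 level, 11106 probe sets were tested. The tests came from limma 3.58.1 (R 4.3.3), by lmFit and then eBayes with its trend option, with all 3 groups in 1 fit, without covariates, with Benjamini-Hochberg adjustment over all probe sets tested; the code was tested on simulated data. Other tools were Python 3.11.15 and pandas 2.3.3. Of the probe sets, 12783 had 1 symbol, 312 several and 2771 none.

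Per comparison, the text names the 6 largest rises and the 6 largest falls among called probe sets whose array ranges stand apart, as well as Rplp0, Rplp1, Rplp2, Rpsa, Rpl13a, Rpl19, Rpl32 and Rps18, genes whose probe sets disagree, and the 2 largest calls of each list; other members are named for their counts or array values, after these were seen. The members and lists were chosen with earlier results of these data known. The labels call the samples biological replicates, and p-values measure the spread between these samples. The number of arrays limits the precision. Alternatives covered scaling, pseudocount, filter, array weights, the intensity trend, a block for the replicate number, the groups in the fit, how probe sets of a gene are used, and each replicate left out.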

Additional observations from a re-analysis of the deposited data

Results flagged for a closer look

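In 6 of 51 groups of arrays looked at, 1 array lay far from the rest of its group by Dixon's criterion. The criterion was read on the log2 scale with the pseudocount, and flags about 1 in 20 groups by chance. All 6 found on that scale were in the sieved group, and 5 of them were replicate 3. Microdissected arrays that it did not flag also stood apart in signal. Rplp0 had 2304 on LCM20 replicate 4, against 426 to 631 on the other LCM20 arrays. Rpl22 had 12676 on LCM800 replicate 5, against 6666 to 8035 on the other LCM800 arrays. Rpl13a had a signal of 4176 on sieved replicate 3, against 2277 to 2334 on the other sieved arrays. Rps24 (1369966_a_at) had 5059 there, against 2819 to 3035, Rpl5 had 6428, against 4765 to 4937, and Rpsa (1367569_at) had 6544, against 5463 to 5619. The median of the tested ribosomal protein probe sets on the log2 scale was 12.22 on that array, against 11.81 to 11.87. Sieved replicate 3 also had the lowest proximal tubule level and the highest podocyte level of the sieved arrays, 11.91 and 11.37 on the log2 scale, and the part of this in its ribosomal protein signals was not tested. Rpl7l1 (1372391_at) had 322 on sieved replicate 4, against 348 to 353 on the other sieved arrays.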

How the results depend on the processing

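Of the calls against sieved glomeruli, 15 of 23 in LCM20 and 19 of 24 in LCM800 held under all of the alternatives run. The count of rises in LCM20 was 16 with array weights (34.8%, against 33.5% of all probe sets) and 6 to 12 when single replicates were left out; in LCM800 it was 10 with array weights (21.7%, against 40.1% of all). Without LCM800 replicates 1, 2 and 3 the median change in LCM800 against sieved glomeruli was −0.47, and Rpl35 there turned to −1.09; without LCM800 replicates 4 and 5, and with array weights, that median was −0.10. Between LCM20 and LCM800, where the main analysis called none, rises numbered 1 without the intensity trend, 7 with array weights (15.2%, against 4.03% of all), 0 to 6 when single replicates were left out, 4 without LCM800 replicates 1, 2 and 3 (median 0.58) and 10 without LCM800 replicates 4 and 5 (median 0.23), which also gave 3 falls and turned Rpsa (1388244_s_at) to −1.15. Why these values moved was not tested. The median in LCM20 against sieved glomeruli was −0.04 when probe sets with a suffix for shared probes were left out. Equal medians moved the median of all probe sets in LCM800 against sieved glomeruli to 0.12, against 0.22, and that of the members to −0.30. With the replicate number as a block, 11 members were higher and 13 lower in LCM20, 8 higher and 18 lower in LCM800, and none differed between LCM20 and LCM800. LCM800 replicate 5, the only array with its number, adds nothing to that fit. Under it Rpsa passed in LCM800 on 1388244_s_at (2.14, adjusted p = 0.00423 by limma) and 1371189_x_at (0.89, 0.0256), and Rps28 in LCM20 (1.14, 0.044). Same-numbered arrays of different groups had deviations that correlated between −0.244 and 0.233, so the numbers are not shown to pair the samples. Members near the threshold are limited by 4 or 5 arrays a group, and dim probe sets by signal near background.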
